A study of Mus musculus with 6 samples.

Results

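Cdkn1a and Ccne1 encode p21 and cyclin E1, a brake and an accelerator of the same kinase step at the entry into DNA synthesis. Their 2 rows were taken by Ensembl identifier from a deposited table of 54 genes measured in mouse pancreatic islets, the endocrine tissue in which the beta cells make insulin. Islets came from C57BL/6 mice on normal food (control diet, 3 libraries) or high-fat food (high-fat diet, 3 libraries). The sample labels give 22 weeks of diet and the series design text gives 27 weeks. No transgene, drug or other treatment is named for either diet, and neither age nor the number of mice behind a library is stated. The values were FPKM, fragment numbers scaled by transcript length and by library size, so levels may be set side by side between genes.

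Cyclin E1 binds and activates the kinase CDK2, which phosphorylates the retinoblastoma protein and frees E2F transcription factors to drive S phase genes, Ccne1 among them. p21 binds cyclin-CDK2 complexes and blocks their activity; its gene is a classical target of p53 and is also a common marker of cell cycle arrest and senescence. Adult beta cells divide rarely, and their number in C57BL/6 mice is known to grow during long high-fat feeding.

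All 54 rows had a deposited p-value below 0.01, with a highest value of 0.00999, and how they were picked is not recorded. The diet difference of each member is therefore what brought it into view, and it is described here with no test. In the authors' deposited table, Cdkn1a had p = 0.00824 and stood at place 47 of 54 by that value, while Ccne1 had p = 0.00330 and stood at place 18. The size of the authors' deposited score was 1.71 for Cdkn1a. For Ccne1 it was 1.0009, the second smallest of the 54 rows, next to a smallest size of 1.0004.

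The upstream bases of both genes are shown because the members are known for different transcriptional inputs, p53 for Cdkn1a and E2F for Ccne1. Sequences are from RefSeq on GRCm38.p6 and are written 5′ to 3′ on the strand of the gene. Each ends just before the RefSeq start or, where GENCODE M21 places an exon of the gene further upstream of that start, just before that exon. The proximal Cdkn1a sequence thus lies inside the gene, between annotated exons of Cdkn1a. Capitals mark GC boxes (GGGCGG on either strand), TATAAG on either strand and, in the distal Cdkn1a promoter, a match to the p53 response element. Cdkn1a has 2 RefSeq start sites, both on the plus strand. The bases shown lie at chr17:29090729-29090975 for the first, distal one and at chr17:29093519-29093768 for the second. The Ccne1 bases lie on the minus strand at chr7:38107535-38107740.
Cdkn1a distal: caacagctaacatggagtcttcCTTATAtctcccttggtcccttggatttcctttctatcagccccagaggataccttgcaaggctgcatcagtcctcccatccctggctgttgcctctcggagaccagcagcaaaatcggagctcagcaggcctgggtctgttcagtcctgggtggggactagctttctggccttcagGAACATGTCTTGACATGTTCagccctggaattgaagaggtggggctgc
Cdkn1a proximal: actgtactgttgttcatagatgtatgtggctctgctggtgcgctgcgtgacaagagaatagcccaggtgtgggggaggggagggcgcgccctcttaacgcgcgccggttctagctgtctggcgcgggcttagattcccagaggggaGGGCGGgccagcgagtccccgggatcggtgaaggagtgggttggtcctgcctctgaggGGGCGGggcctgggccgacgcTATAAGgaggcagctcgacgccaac
Ccne1: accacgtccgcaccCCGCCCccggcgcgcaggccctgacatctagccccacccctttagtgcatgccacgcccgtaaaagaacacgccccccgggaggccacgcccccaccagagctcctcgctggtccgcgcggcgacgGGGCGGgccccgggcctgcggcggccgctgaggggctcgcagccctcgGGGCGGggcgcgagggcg

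In the 250 bases before each RefSeq start, GC content was 54% for the distal Cdkn1a promoter, 64.8% for the proximal one and 76.0% for Ccne1. Of all promoter windows in the RefSeq table, 55.2%, 82.3% and 96.7%, in that order, had a lower GC content. The distal Cdkn1a promoter held no GC box and 2 CpG dinucleotides, with TATAAG on the opposite strand from -228 to -223, where -1 is the base before the RefSeq start. The proximal one held 2 GC boxes and 19 CpG, with TATAAG from -25 to -20. Ccne1 held 4 GC boxes and 34 CpG, and the GC box from -49 to -44 is left in lower case above because the sequence shown ends inside it. A GC box was found in 32.7% of all 32851 windows of 250 bases and TATAAG in 6.65%. None of the matches marked in the members overlapped another.

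The p53 response element is a pair of adjoining 10-base arms, each with a 4-base core. It was searched with 1 mismatch allowed outside the cores, a setting chosen after the sequence had been read. The distal Cdkn1a promoter had a match, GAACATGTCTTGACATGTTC, from -51 to -32. Of the 32851 windows, 15 (0.0457%) had one. The E2F motif TTTNGCGC was searched on both strands with no mismatch allowed, a stricter setting than for the p53 element. It was present in 1.13% of windows and had no match in the 3 windows of the members. E2F sites with other letters or outside the windows were not searched, so their absence from Ccne1 cannot be read from this. These matches describe letters in the reference and were not measured in the islets.

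Cdkn1a (ENSMUSG00000023067) lies on chromosome 17 from 29090976 to 29100727 on the plus strand (GRCm38, GENCODE M21) and has 5 annotated transcripts, 4 of them protein-coding. Of its 3553 exonic bases, 273 (7.68%) are shared with AC167363.2, an unclassified transcript on the opposite strand. The strand setting of the counting is not given, so reads over those bases cannot be assigned. Ccne1 (ENSMUSG00000002068) lies on chromosome 7 from 38097984 to 38107534 on the minus strand. It has 5 annotated transcripts, 2 of them protein-coding, and shares no exonic base with another annotated gene. The main transcripts are alike in length, 1913 nucleotides in 3 exons for Cdkn1a-201 and 2000 nucleotides in 12 exons for Ccne1-201.

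Cdkn1a, the inhibitor, was the more abundant of the pair in every library. Its level was 1.54, 2.96 and 2.65 FPKM in control replicates 1, 2 and 3, and 7.22, 6.78 and 4.48 FPKM in high-fat replicates 1, 2 and 3. All 3 high-fat libraries lay above all 3 controls, and the lowest high-fat library was at 1.51 times the highest control. The means were 2.38 ± 0.746 FPKM on the control diet and 6.16 ± 1.47 FPKM on the high-fat diet (SD, n = 3), a ratio of 2.59. Within the control diet, replicate 2 was 1.92 times replicate 1, and within the high-fat diet replicate 1 was 1.61 times replicate 3. By the ratio of means, Cdkn1a stood at place 11 of the 54 rows from the highest.

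Ccne1, the CDK2 activator, was low in all libraries. Its level was 1.04, 0.298 and 0.467 FPKM in control replicates 1, 2 and 3, and 1.31, 0.993 and 1.59 FPKM in high-fat replicates 1, 2 and 3. The diets overlapped, since control replicate 1 stood above high-fat replicate 2. The means were 0.603 ± 0.391 and 1.298 ± 0.300 FPKM (SD, n = 3), a ratio of 2.15. The 3 controls spanned 3.50-fold and the high-fat libraries 1.60-fold. The SD of the controls was 64.8% of their mean, the sixth largest such share of the 54 rows, whose median was 33.5%. With 1 library left out, the ratio of means of Ccne1 ran from 1.72 (without control replicate 2) to 3.39 (without control replicate 1).

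**Figure D1:**
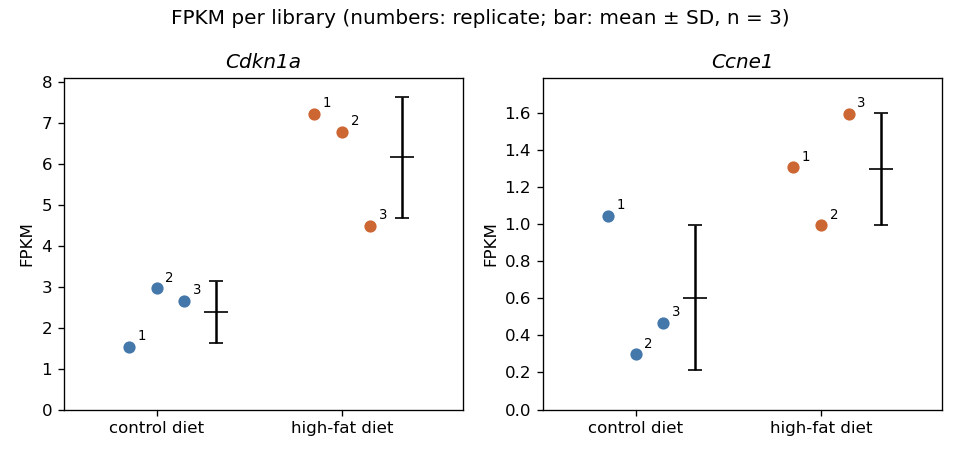
FPKM of Cdkn1a (left) and Ccne1 (right) in each library, on linear axes from 0, with points numbered by replicate and the bar giving the mean ± SD of 3 libraries. The lowest high-fat Cdkn1a value, 4.48 FPKM, lies above the highest control, 2.96 FPKM, whereas control replicate 1 of Ccne1 (1.04 FPKM) lies above high-fat replicate 2 (0.993 FPKM).

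Of the 2 members, 1 had diets that did not overlap, where 94.4% of the 54 rows had such diets in either direction (61.1% with the high-fat libraries higher and 33.3% with them lower). Both means were higher on the high-fat diet, as were those of 66.7% of the rows. The log2 ratio of means was 1.37 for Cdkn1a and 1.11 for Ccne1, next to a median of 1.04 over the 36 rows with a higher mean and of 0.81 over all 54. The members thus sat among the rows of their direction, and nothing is read from these counts, because the rows were picked on the same libraries. In an islet RNA sample, a higher level per cell and more cells that hold the transcript cannot be told apart.

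**Figure D2:**
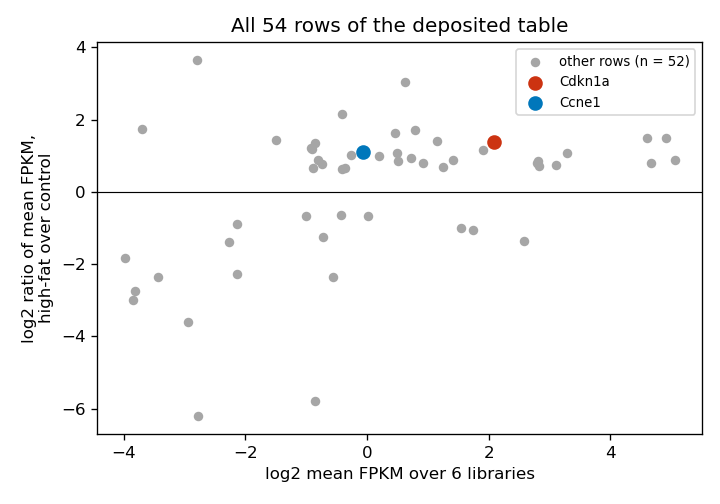
Log2 ratio of mean FPKM, high-fat over control, against the log2 of the mean FPKM over the 6 libraries for the 54 rows of the table, 1 point per gene. Cdkn1a (1.37) and Ccne1 (1.11) lie in the band of rows with a higher mean on the high-fat diet.

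If all Ccne1 fragments came from Ccne1-201, the mean level would amount to 1.21 fragments in each 1000000 mapped on the control diet and 2.60 on the high-fat diet. For Cdkn1a-201 the same figures were 4.56 and 11.8. Read totals are not given, so the depth is unknown and no counting interval can be set. By mean level over the 6 libraries, Cdkn1a (4.27 FPKM) stood at place 11 of the 54 rows and Ccne1 (0.950 FPKM) at place 27.

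The transcripts of inhibitor and activator were compared by the ratio of Cdkn1a to Ccne1 FPKM within each library. No scaling of a whole library can change this ratio. Protein levels and CDK2 activity were not measured, so the balance of the proteins cannot be read from it. The ratio of transcripts was 1.47, 9.92 and 5.68 in control replicates 1, 2 and 3, and 5.53, 6.82 and 2.81 in high-fat replicates 1, 2 and 3. The high-fat values all lay inside the range of the controls. On the log2 scale the mean ratio was 2.12 ± 1.41 on the control diet and 2.24 ± 0.67 on the high-fat diet (SD, n = 3), a difference of 0.12 that is far smaller than either SD. The direction of this difference turned to -0.66 without control replicate 1 and to -0.15 without high-fat replicate 2. The ratio of the mean levels was 3.95 on the control diet and 4.74 on the high-fat diet.

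**Figure D3:**
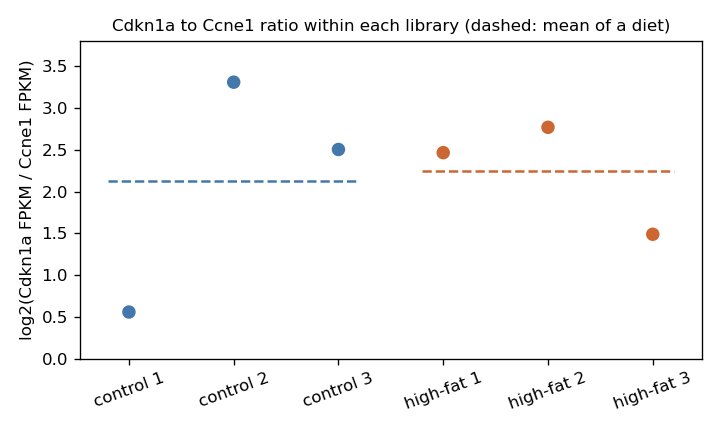
Log2 of the Cdkn1a to Ccne1 FPKM ratio in each of the 6 libraries, with a dashed line at the mean of each diet (2.12 and 2.24). The 3 high-fat points fall within the span of the 3 control points, and the lowest point of each diet is control replicate 1 and high-fat replicate 3.

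The members ran in opposite order over the controls, and at one end of the order within the high-fat diet. Control replicate 1 had the lowest Cdkn1a and the highest Ccne1 of the controls, and high-fat replicate 3 had the lowest Cdkn1a and the highest Ccne1 of its diet. Ccne1 followed the level of the other rows in this: 30 of the 54 rows were highest in both of these libraries. Control replicate 1 was the highest control in 46 of 54 rows, and high-fat replicate 3 the highest of its diet in 31. Cdkn1a went against it. These libraries were picked on the order of the members in them, so nothing is read from the counts. Control replicate 1 was the lowest control in 7 of the 54 rows, and high-fat replicate 3 the lowest of its diet in 6. Cdkn1a was among the 2 rows that were lowest in both libraries. The other was Kcng2, a modulatory potassium channel subunit gene named after its values were seen, at 0.231 FPKM in control replicate 1 and listed at 0 in high-fat replicate 3.

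The libraries differed in their level over the table as a whole. The median FPKM over the 54 rows was 1.09, 0.548 and 0.642 in control replicates 1, 2 and 3, and 1.27, 0.982 and 1.304 in high-fat replicates 1, 2 and 3. Divided by that median, Cdkn1a was at 1.41, 5.40 and 4.13 in the controls and at 5.69, 6.90 and 3.44 in the high-fat libraries. The diets then overlapped, and the log2 ratio of means went from 1.37 to 0.55. Ccne1 was at 0.953, 0.545 and 0.727 in the controls and at 1.03, 1.01 and 1.22 in the high-fat libraries. Its diets no longer overlapped, and its log2 ratio of means went from 1.11 to 0.55. By level, Ccne1 stood at place 27 of the 54 rows in high-fat replicates 1 and 2. It was thus a middle row that sets the library median there, so its values of 1.03 and 1.01 follow largely from the divisor. Nothing is read from its lack of overlap on this scale. That median is itself taken over picked rows, of which 36 had their higher mean on the high-fat side, and dividing by it may remove some of the difference between diets. The part of library level in either member's difference was not tested.

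**Figure D4:**
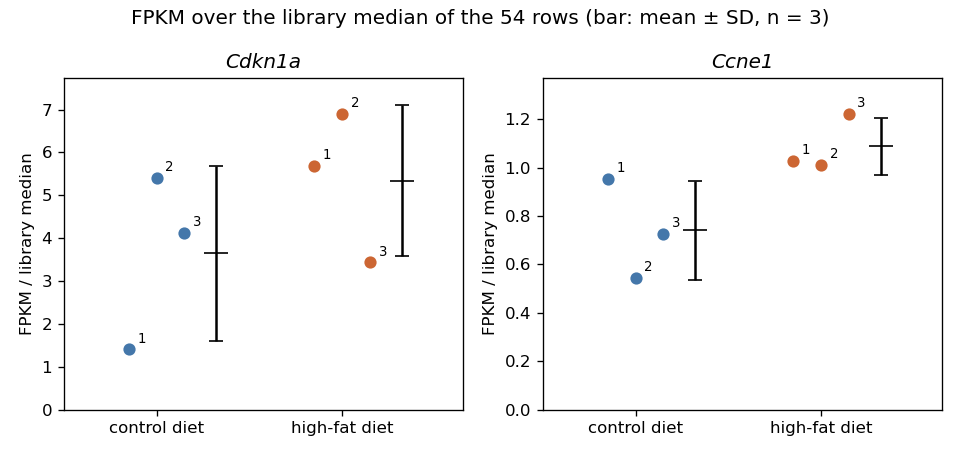
FPKM divided by the library's median FPKM over the 54 rows for Cdkn1a (left) and Ccne1 (right), on linear axes from 0, with points numbered by replicate and the bar giving the mean ± SD of 3 libraries. On this scale the Cdkn1a diets overlap, with control replicate 2 at 5.40 and high-fat replicate 3 at 3.44, while the lowest high-fat Ccne1 value, 1.01, is above the highest control, 0.953. In high-fat replicates 1 and 2, Ccne1 was a middle row of the 54 that sets the divisor, at place 27 by level. Its values there follow largely from that divisor.

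The rows with the profile most like each member were found by the root mean square distance between log2(FPKM + 0.1) profiles, each centred on its own mean, over the 6 libraries. For Ccne1 the nearest of the other 53 rows was Kl, which encodes Klotho, a co-receptor of fibroblast growth factor 23, at a distance of 0.0423, where the median over the 53 rows was 0.472. The Kl to Ccne1 ratio stayed between 1.41 and 1.61 in all 6 libraries. Next were Fkbp5, a co-chaperone of the glucocorticoid receptor (0.0899), and Pcyox1l, a prenylcysteine oxidase-like gene (0.150). Kl was at 1.49, 0.461 and 0.750 FPKM in control replicates 1, 2 and 3 and at 1.84, 1.48 and 2.38 FPKM in high-fat replicates 1, 2 and 3, and its diets overlapped as those of Ccne1 did. The level of Fkbp5 was 9.26 to 12.3 times that of Ccne1. With a pseudocount of 1 in place of 0.1, Kl and Pcyox1l remained among the 3 nearest rows and Fkbp5 moved to place 30. Library level was left in all these profiles, and control replicate 1 was the highest control in 46 of the 54 rows. The part of library level in the likeness of Ccne1 to Kl, Fkbp5 and Pcyox1l was not tested.

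For Cdkn1a no row came as close. The nearest were Gabrr2, a GABA receptor rho subunit (0.339), Hsph1, an HSP110-class chaperone (0.376), and Defb1, a beta-defensin (0.383), next to a median distance of 0.700. Gabrr2 was listed at 0, 0.033 and 0.031 FPKM in control replicates 1, 2 and 3, all below the pseudocount of 0.1. In high-fat replicates 1, 2 and 3 it was at 0.208, 0.319 and 0.278 FPKM. The ratio of means of Gabrr2 was 12.5, against 2.59 for Cdkn1a, so its nearness depends on the pseudocount. With a pseudocount of 1 it moved to place 9, while Hsph1 and Defb1 remained among the first 3. The Hsph1 to Cdkn1a ratio ran from 6.01 to 13.9, a 2.32-fold range over the libraries. Ccne1 stood at place 32 in distance from Cdkn1a (0.820), and the Cdkn1a to Ccne1 ratio ran over a 6.73-fold range.

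**Figure D5:**
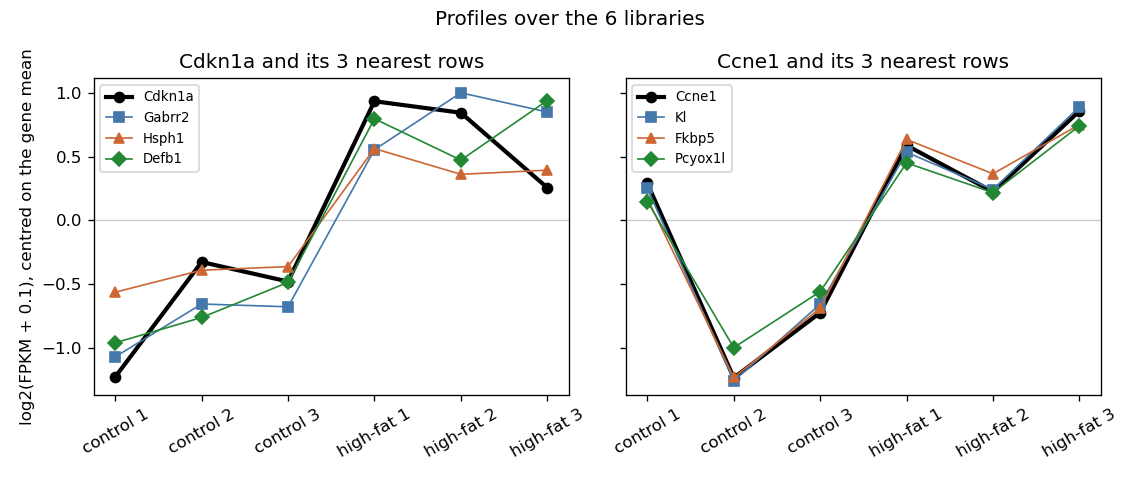
Log2(FPKM + 0.1) over the 6 libraries, centred on each gene's mean and with library level left in. Cdkn1a is shown with its 3 nearest rows (left) and Ccne1 with its 3 nearest rows (right), 1 line per gene. The Ccne1, Kl and Fkbp5 lines nearly coincide (distances 0.0423 and 0.0899), whereas the row nearest to Cdkn1a is at 0.339, and Cdkn1a is the lowest of its panel in control replicate 1 and in high-fat replicate 3.

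Few other genes of the pathway can be set beside the pair. Of 19 genes of the CDK2 step (cyclins E and A, their inhibitors, retinoblastoma family and E2F genes), the 2 members were the ones in the table. None of the 54 rows was in the list of 9 genes of the CDK4/6 step or of 22 genes of S phase, mitosis and proliferation. Of 23 genes of the p53 pathway, Cdkn1a was the one in the table. Of 18 genes for regulators of Cdkn1a transcription, Jun was present, whose product forms part of AP-1, a transcription factor. Jun levels were 0.522, 0.450 and 0.359 FPKM in control replicates 1, 2 and 3. In high-fat replicates 1, 2 and 3 they were 0.762, 0.726 and 0.789 FPKM, a ratio of means of 1.71. The Jun diets did not overlap, which held for 94.4% of the 54 rows in either direction. The log2 ratio of Jun, 0.77, lay below the median of 0.81 over all 54 rows, and nothing is read from it. Genes of these lists outside the table were not analysed here, nor were the 15 islet hormone and identity genes or the 12 markers of other cells of an islet preparation, so the labelled tissue was not checked against its markers.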

How the data were processed

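RNA of 6 islet samples was sequenced after Trizol extraction and a Vazyme total RNA library preparation, per the labels' protocols. The submitters' processing notes name the GRCm38 build, StringTie 1.3.3, HISAT2 2.1.0 and Trimmomatic 0.36, with no role or order. Per the file headers, the deposited table gives FPKM per library, the authors' group means and SDs, an unadjusted p-value, a log2 fold change and a score and effect size. The deposited log2 fold change matched log2 of the ratio of means, taken with no pseudocount. The test, annotation release and strand setting are not stated, and read depth is unknown.

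Symbols were matched by Ensembl identifier for all 54 rows. Groups follow the diet label, and replicates are numbered in accession order. Nothing says that replicates are separate animals, so the SDs may be technical. The members, the gene lists and the settings were chosen with earlier results of these data known. Named genes are the members, rows in a fixed list and the 3 rows nearest each member in log2(FPKM + 0.1). The computations were run in Python 3.11.15 with pandas 2.3.3. Finding rows with all high-fat libraries higher and finding nearest rows were tested on simulated data, with less noise than the members had. The other steps were not tested in this way. Promoters of both members were matched in RefSeq; start sites there number 32851 windows over 27025 genes.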

Additional observations from a re-analysis of the deposited data

How the results depend on the processing

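Depth is unknown, so no counting error could be set for either member; Ccne1 lay below 1 FPKM in 3 of 6 libraries. Both members kept a higher mean on the high-fat diet under pseudocounts of 0.1 and 1, division by the library median and each left-out library. The log2 ratio of Cdkn1a was 1.37, 1.14 to 1.56 with 1 library left out and 0.55 after division by the library median of the 54 rows. That of Ccne1 was 1.11, 0.78 to 1.76 with 1 library left out, 0.54 as the difference of mean log2(FPKM + 1) and 0.55 after that division. The values with a pseudocount are differences of mean log2 values, so the averaging changed together with the pseudocount. The mean log2 ratio of Cdkn1a to Ccne1 differed between diets by 0.12, by 0.24 with a pseudocount of 0.1 and by 0.26 from the mean levels. With 1 library left out it ran from -0.66 (without control replicate 1) to 0.71 and was -0.15 without high-fat replicate 2; the cause was not tested. Rows whose diets did not overlap numbered 51, 39 after division by the median, 51 to 54 with 1 library left out and 24 among the 26 rows with a mean of at least 1 FPKM, where fewer rows were counted. No paired analysis was possible because the replicate numbers follow accession order and the sample titles share no number between diets.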
